A study of Mus musculus with 6 samples.

Results

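Reads of the T cell receptor alpha joining segments and of the constant genes Trac, Trbc1 and Trbc2 were compared between IP and Input libraries. The IP libraries hold RNA recovered with YTHDF2 and the Input libraries RNA of the lysate, both from tumour-infiltrating regulatory T (Treg) cells. The members were taken by number from the Ensembl gene identifiers (IDs) of the count files. The joining-segment block is the run from ENSMUSG00000076869 to ENSMUSG00000076927, which holds 59 numbers and was selected on the IP and Input counts themselves: it was chosen by its ID ENSMUSG00000076890, the one with the largest log2 fold change among the 674 IDs called enriched at a mean of at least 10 CPM (counts per 1000000 gene-assigned reads). Of all tested IDs, 17 had a higher log2 fold change, and 1 of these was called. The files list 57 of these 59 numbers. With Trac (ENSMUSG00000076928.5), Trbc1 (ENSMUSG00000076490.6) and Trbc2 (ENSMUSG00000076498.2) this gives 60 members of 54446 gene IDs. Just outside the block, ENSMUSG00000076867.2 had 1 read over the 6 libraries and ENSMUSG00000076934.2 had none.

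Mouse B16F10 melanoma cells were grown under the skin of wild-type (WT) mice, and live CD45+ CD4+ Foxp3-GFP+ Treg cells were sorted from the tumours. All libraries share this genotype, tumour and gate, and the labels give no age. In the IP group, lysate was incubated for 4 hours with an anti-mouse YTHDF2 antibody on beads that were then washed 6 times. In the Input group, 10% of the lysate was kept without antibody (the antibody label reads none), and each group has 3 libraries, numbered as replicates 1 to 3. The labels do not say whether these came from separate animals or pools, and a precipitation without the specific antibody was not analysed here, so enrichment here compares the IP with the Input only and the spread between libraries may be technical. The contrast gives recovery with the antibody relative to the Input. It does not measure T cell receptor transcripts per cell or the number of cells carrying them.

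The alpha chain of the T cell receptor is assembled in thymocytes, where a variable segment is joined to a joining segment by recombination of the gene. The joining segments that lie between the chosen one and the constant region stay in the gene and are transcribed with it. Splicing connects the chosen joining segment to Trac and removes the stretch between them, so that the mature mRNA carries variable, joining and constant sequence. The mRNA of the beta chain carries Trbc1 or Trbc2 as its constant sequence. YTHDF2, the protein precipitated here, recognises N6-methyladenosine, a common chemical mark of mRNA, and directs marked transcripts to decay in the cytoplasm.

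In RefSeq's annotation of GRCm38.p6, the assembly also called mm10, the joining segments form a cluster of 60 genes, Traj61 to Traj1, at chr14:54155005-54218842, of which 9 are annotated as pseudogenes. Each is short, 29 to 72 bases long with a median of 60. Trac follows at chr14:54220521-54224198, and Trbc1 and Trbc2 lie at chr6:41538219-41539665 and chr6:41546730-41548181. The RefSeq table holds no Ensembl IDs, so single joining-segment IDs carry no Traj name, position or length here, and the names of the constant genes come from the definition of the members. For the same reason the markers of Treg and other cells, the other genes of the receptor complex and the recombination genes were not measured by name. Values below compare a feature between libraries, and reads of different features are not set per length.

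Joining-segment reads were more frequent in the IP and constant-gene reads less frequent, in every library. The 57 joining-segment IDs together held 5908, 5110 and 4593 reads in IP replicates 1 to 3 and 2555, 1411 and 1281 reads in Input replicates 1 to 3. Scaled to counts per 1000000 gene-assigned reads with TMM factors (CPM), these sums were 685, 734 and 540 in the IP and 182, 147 and 110 in the Input. The lowest IP library lay above the highest Input library, and the IP and Input means were 653 ± 101 CPM (SD, n = 3) and 146 ± 36.2 CPM (SD, n = 3). The difference in log2 CPM was 2.17 ± 0.25 (SE), which is 4.51-fold. The members were chosen with this contrast in view, so the difference is given without a test. It was 2.11 without ENSMUSG00000076890, the ID that led to the choice, and 1.65 when libraries were scaled to all their reads, a scaling that moved the median over all tested IDs by -0.53 as well.

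Trac encodes the constant part of the alpha chain and is the downstream partner to which joining segments are spliced. It had 145, 178 and 91.4 CPM in IP replicates 1 to 3 and 409, 552 and 564 CPM in Input replicates 1 to 3. All IP libraries lay below all Input libraries, with a log2 fold change of -1.88 ± 0.25 (SE). The raw counts were 778 to 1248 reads per IP library and 5289 to 6583 per Input library.

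Trbc1 and Trbc2 encode alternative constant parts of the beta chain. Trbc1 had 49.7, 54.3 and 44.4 CPM in the IP and 98.9, 84.3 and 112 CPM in the Input, and its log2 fold change was -0.99 ± 0.24 (SE). Trbc2 had 41.9, 31.5 and 16.5 CPM in the IP and 141, 106 and 97.0 CPM in the Input, and its log2 fold change was -1.94 ± 0.36 (SE). For both genes the groups did not overlap. The number of Trbc1 reads per Trbc2 read was 1.19, 1.73 and 2.70 in the IP and 0.701, 0.798 and 1.15 in the Input. Parts of Trbc1 and Trbc2 are near-identical, so reads without a unique alignment could include reads of either. Such reads made up 2.88% to 3.35% of an IP file and 9.18% to 9.65% of an Input file. How many came from these genes is not known, so their separate values are uncertain.

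In edgeR's quasi-likelihood fit over 15615 IDs, the 3 constant genes were among the depleted IDs at an adjusted p under 0.05, where 6.11% of all tested IDs were depleted, and among the 23.7% for which all IP libraries lay below all Input libraries. With upper quartile factors Trbc1 was not called (log2 fold change -0.79). It was also not called without IP replicate 1 and without each of the Input libraries, with log2 fold changes of -1.04, -1.07, -1.18 and -0.98.

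**Figure D1:**
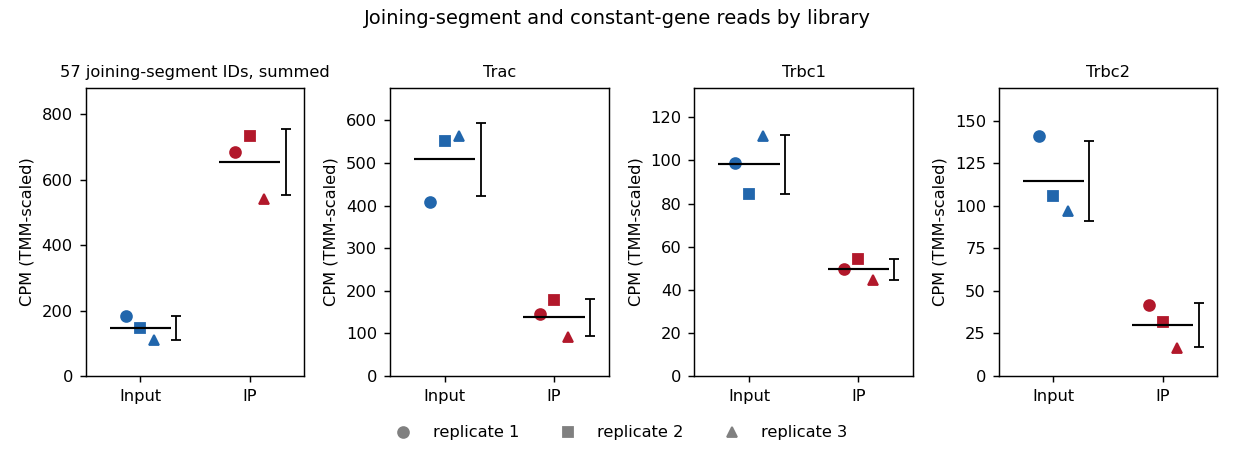
Each panel plots CPM (counts per 1000000 gene-assigned reads, TMM-scaled) on an axis from 0 for the 3 Input and 3 IP libraries, with the mean as a line and the SD as a bar beside the points. The joining-segment sum is higher in the IP (540 to 734 against 110 to 182 CPM), whereas Trac, Trbc1 and Trbc2 are lower there, without overlap in any panel.

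Ratios within a library do not depend on how libraries are scaled. In the Input, 0.446, 0.267 and 0.195 joining-segment reads were counted per Trac read in replicates 1 to 3. In the IP the ratios were 4.73, 4.13 and 5.90. The IP libraries thus held several joining-segment reads for each Trac read, where every Input library held fewer joining-segment than Trac reads. The difference in log2 ratio was 4.09 ± 0.38 (SE), or 17.1-fold.

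Within replicate numbers 1, 2 and 3, the log2 ratio in the IP exceeded that in the Input by 3.41, 3.95 and 4.92. Without any 1 library the difference ranged from 3.82 to 4.42. Against Trbc1 and Trbc2 summed, which lie on another chromosome, 7.47, 8.56 and 8.87 joining-segment reads were counted per constant read in the IP and 0.759, 0.776 and 0.527 in the Input, a log2 difference of 3.61 ± 0.20 (SE).

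Reads assigned to no annotated feature moved with this result. They made up 71.2% to 72.1% of an IP file and 49.6% to 51.6% of an Input file. On the scale of reads per 1000000 of such reads, the joining-segment IDs had 242, 266 and 199 reads in IP replicates 1 to 3 and 140, 102 and 82.8 in Input replicates 1 to 3. The groups did not overlap on this scale, and the log2 difference was 1.14 ± 0.25 (SE), compared with 2.17 for CPM. Trac had 33.7 to 64.3 on the same scale in the IP and 315 to 425 in the Input. Reads that overlap more than 1 annotated gene, which HTSeq calls ambiguous, made up 0.396% to 0.418% of an IP file and 1.21% to 1.25% of an Input file. No source used here states the counting mode or strand setting, so how many reads spanning a splice junction from a joining segment to Trac were set aside as ambiguous is unknown, and the part of either read class in the result was not tested.

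**Figure D2:**
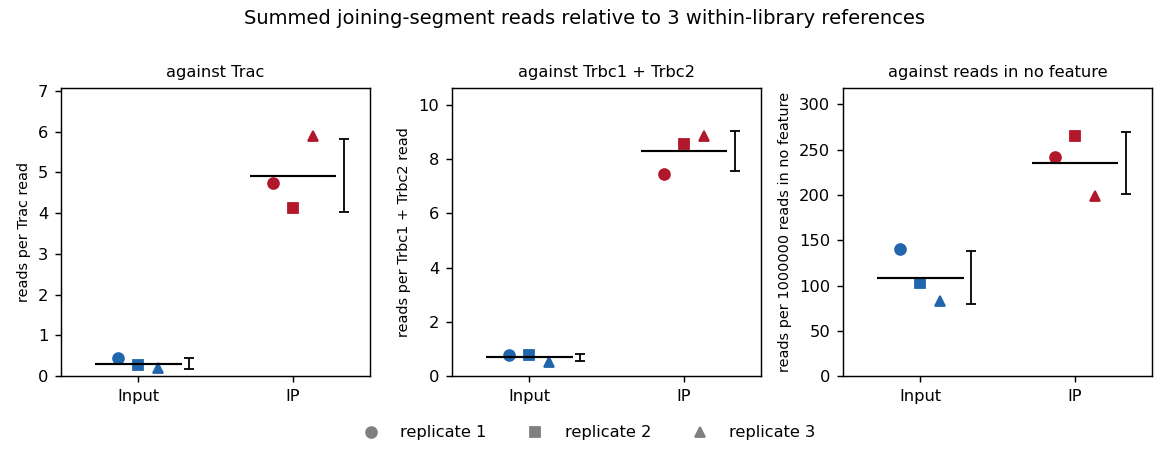
Joining-segment reads summed over the 57 IDs are divided by Trac reads, by Trbc1 plus Trbc2 reads, and given as reads per 1000000 in no annotated feature, for each library, with means (lines) and SD (bars). All 3 IP libraries lie above all 3 Input libraries on each reference, by 17.1-fold for Trac and by 2.20-fold for reads in no feature.

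Of the 57 joining-segment IDs, 46 had a higher mean CPM in the IP, 10 had a higher mean in the Input and 1 had no read in any library. A read was found for 49 IDs in the IP and for 56 in the Input, and 20 IDs had reads in all 6 libraries. The filter on low counts kept 35 IDs for the fit, 34 of them with a log2 fold change above 0. Their median log2 fold change was 2.04, and the values ranged from -0.21 (ENSMUSG00000076899.1) to 4.66 (ENSMUSG00000076890.1). The median over all 15615 tested IDs was -0.12, and over the 11907 other tested IDs of the same mean level (1.45 to 80.4 CPM) it was -0.14. Of these 11907 IDs, 45.6% had a log2 fold change above 0.

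The filter needs the level in only 3 libraries, and 11 of the 35 IDs passed it in all 3 IP libraries but not in all 3 Input libraries. For such IDs the IP libraries sufficed, whatever the Input level, and 10 more passed by other mixes of libraries. The count of 34 and the median therefore describe the tested IDs and support nothing further. In the 14 tested IDs that passed in all 6 libraries, the log2 fold change was above 0 for 14, with a median of 1.97. These IDs too belong to a block chosen on this contrast, so nothing is read from their direction. Of the 22 IDs left out by the filter, 12 had a higher mean in the IP, 9 in the Input and 1 had no read. The 7 IDs with reads in the Input and none in the IP are among these 22, and none of them had more than 30 reads over the Input libraries.

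Called enrichment at an adjusted p under 0.05 was reached by 4 of the 35 tested IDs, and depletion by 0, in edgeR's quasi-likelihood test, where 4.33% of all tested IDs and 1.5% of the other IDs in the level range of 1.45 to 80.4 CPM were called enriched. The rule that chose the block used this contrast, so nothing is read from these counts. All IP libraries lay above all Input libraries for 18 of the 35. This was so for 12.8% of all tested IDs and for 9.12% of the other IDs in that level range. The choice of the block and the filter both bear on the 18, so nothing is read from this count either. The standard errors of single IDs were large, with a median of 1.30 on the log2 scale. Without IP replicate 3 the number called enriched was 8. It was 2 without IP replicate 1, without IP replicate 2, without Input replicate 1 or without Input replicate 3, and DESeq2's Wald test called 14.

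**Figure D3:**
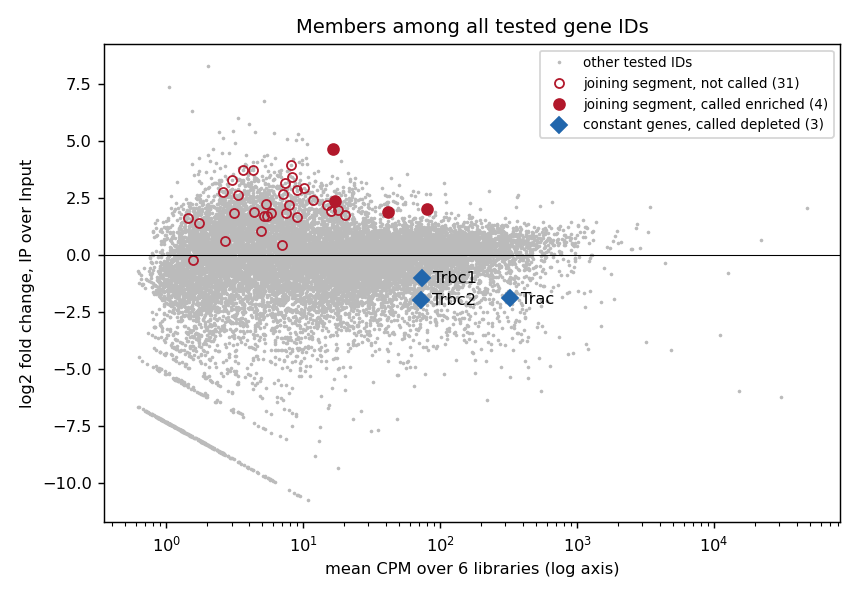
Log2 fold change of IP over Input against mean CPM (log axis) for 15615 tested IDs (grey), the 35 tested joining-segment IDs (circles, filled for the 4 called enriched) and the constant genes (diamonds). The joining-segment IDs lie from -0.21 to 4.66 and the constant genes at -0.99, -1.88 and -1.94.

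ENSMUSG00000076922.1 was the joining-segment ID with the highest level. It had 128, 155 and 105 CPM in IP replicates 1 to 3 and 34.7, 36.9 and 22.6 CPM in Input replicates 1 to 3, so the groups lay far apart. Its log2 fold change was 2.04 ± 0.29 (SE), the most precise of the block, and its call was kept under all 13 alternatives that gave it a value. It took 19.8% ± 1.24 (SD, n = 3) of the block's IP reads and 21.5% ± 3.11 (SD, n = 3) of its Input reads, so its share of the block's reads overlapped between the groups. Without it the log2 difference of the block's sum was 2.21.

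ENSMUSG00000076919.1, the next by level, had 66.3, 89.2 and 42.5 CPM in the IP and 17.7, 20.3 and 14.7 CPM in the Input. The fitted log2 fold change was 1.91 ± 0.38 (SE), and the groups did not overlap. ENSMUSG00000076914.1 had 30.7, 31.5 and 23.3 CPM in the IP and 8.35, 4.59 and 3.34 CPM in the Input, with a log2 fold change of 2.39 ± 0.62 (SE). Its call was lost under 8 of 13 alternatives and that of ENSMUSG00000076919.1 under 4 of 13, with no change of direction.

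ENSMUSG00000076890.1, the ID for which the block was chosen, took a larger share of the block's reads in each IP library than in any Input library. It had 26.4, 18.8 and 50.7 CPM in the IP and 1.85, 1.57 and 0.343 CPM in the Input, that is 228, 131 and 431 reads against 26, 15 and 4. Replicate 3 was the highest library of the IP and the lowest of the Input. Its part of the joining-segment reads was 3.86%, 2.56% and 9.38% in the IP and 1.02%, 1.06% and 0.312% in the Input. The log2 fold change of 4.66 ± 0.85 (SE) ranged from 4.12 to 4.99 over the alternatives. As this ID was picked for its enrichment, these values are a description only.

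The other 6 of the 10 IDs with the highest mean CPM were not called but lay above 0. ENSMUSG00000076917.1 was similar in the 3 IP libraries, at 28.0, 32.5 and 33.6 CPM, and had 15.1, 4.91 and 7.46 CPM in the Input (log2 fold change 1.78 ± 0.58, SE). ENSMUSG00000076921.1 had 16.8, 22.1 and 21.3 CPM in the IP and 5.07, 3.34 and 2.57 CPM in the Input (2.45 ± 0.73, SE). In both, all IP libraries lay above all Input libraries. ENSMUSG00000076911.1 (1.99 ± 0.71, SE) and ENSMUSG00000076895.1 (2.94 ± 0.90, SE) were also without overlap. Without IP replicate 2 the value of ENSMUSG00000076895.1 was 2.30.

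ENSMUSG00000076915.3 and ENSMUSG00000076907.1 varied more between libraries. ENSMUSG00000076915.3 had 11.1, 17.7 and 47.0 CPM in the IP and 3.07, 4.49 and 12.1 CPM in the Input, so that Input replicate 3 lay above IP replicate 1, and replicate 3 was the highest library in both groups. ENSMUSG00000076907.1 had 38.2, 30.3 and 4.58 CPM in the IP and 9.63, 4.28 and 1.97 CPM in the Input, with replicate 3 the lowest in both groups. Their log2 fold changes were 1.95 ± 0.81 (SE) and 2.20 ± 0.93 (SE). That of ENSMUSG00000076915.3 was 1.10 without IP replicate 3 and 2.67 without Input replicate 3, and that of ENSMUSG00000076907.1 was 2.86 without Input replicate 1.

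A few tested IDs differed little between the groups. ENSMUSG00000076899.1, the only tested ID below 0, had 2.78, 1.58 and 0 CPM in the IP and 1.85, 2.51 and 0.686 CPM in the Input, a log2 fold change of -0.21 ± 1.74 (SE). ENSMUSG00000076908.1 had 5.79, 15.2 and 3.64 CPM in the IP and 5.64, 8.56 and 3.52 CPM in the Input, with a log2 fold change of 0.48 ± 1.02 (SE). Errors of this size do not separate these IDs from the rest of the block.

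Reads were spread unevenly over the block, more so towards the high numbers. The 57 IDs were put in number order and divided into 3 groups of 19, a division chosen after the values were seen. The group of lowest numbers (ENSMUSG00000076870.2 to ENSMUSG00000076889.1) held 5.67% ± 0.371 (SD, n = 3) of the block's Input reads and 4.41% ± 2.56 (SD, n = 3) of its IP reads. The middle group (ENSMUSG00000076890.1 to ENSMUSG00000076908.1) held 24.8% ± 0.651 (SD, n = 3) and 32.7% ± 4.33 (SD, n = 3), and the group of highest numbers 69.6% ± 1.02 (SD, n = 3) and 62.9% ± 2.28 (SD, n = 3). Most joining-segment reads therefore fell in the last group in both kinds of library. Spearman's rho between the number order and the reads of an ID was 0.43 to 0.58 in the IP libraries and 0.42 to 0.66 in the Input libraries over 57 IDs. The reads of 1 library share depth and segment lengths, and no file pairs the number order with position on the chromosome.

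All 3 groups had a higher mean in the IP. In CPM, the low, middle and high groups summed in the IP to 30.5 ± 20.4, 211 ± 21.5 and 411 ± 72.1 (SD, n = 3). In the Input they summed to 8.30 ± 2.04, 36.3 ± 9.10 and 102 ± 25.3 (SD, n = 3). The log2 differences were 1.60 ± 0.76 (SE), 2.57 ± 0.23 (SE) and 2.03 ± 0.26 (SE). In the low group IP replicate 3, at 9.28 CPM, lay inside the Input range of 6.00 to 9.92 CPM, and in the other groups the IP and Input libraries did not overlap. With ENSMUSG00000076890.1 left out, the middle group held 29.0% ± 2.94 (SD, n = 3) of IP reads and 24.2% ± 0.488 (SD, n = 3) of Input reads. The gap between the middle and the other groups thus rested in part on that ID. Medians of the log2 fold change over tested IDs ordered the groups otherwise. They were 2.60 in the low group (4 tested IDs), 2.44 in the middle (14) and 1.95 in the high group (17). The limit of the filter given above holds for these medians too.

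**Figure D4:**
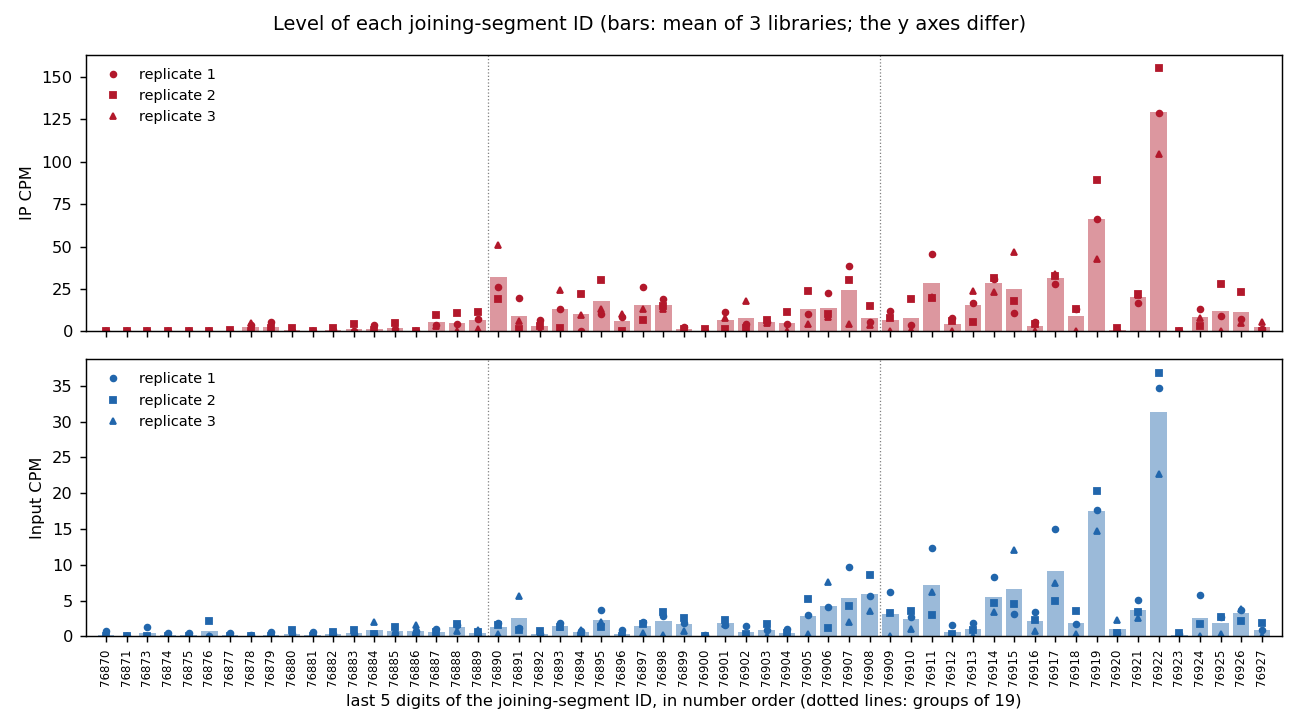
CPM of each joining-segment ID in number order, IP above and Input below with different y axes from 0; bars are means of 3 libraries and symbols single libraries. ENSMUSG00000076922.1 and ENSMUSG00000076919.1 lead in both panels, and ENSMUSG00000076890.1 stands out in the IP (32.0 CPM on average) but not in the Input (1.25 CPM).

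The number of IDs over which the block's reads were spread overlapped between the 2 kinds of library. The effective number of IDs (the inverse Simpson index, which equals the number of IDs if all had the same reads) was 13.6 ± 1.27 (SD, n = 3) for IP libraries and 11.8 ± 2.17 (SD, n = 3) for Input libraries. At an equal 1281 joining-segment reads per library it was 13.5 ± 1.31 and 11.8 ± 2.15 (SD, n = 3). The 5 leading IDs of a library held 45.2% to 51.6% of its joining-segment reads in the IP and 49.0% to 58.6% in the Input. Each of these ranges overlapped between the groups. Spearman's rho of the reads per ID between libraries was 0.54 to 0.73 within the IP, 0.58 to 0.76 within the Input and 0.48 to 0.79 between an IP and an Input library, over 57 IDs that differ in level in every library. For an IP and an Input library of equal number it was 0.79, 0.75 and 0.52 in replicates 1 to 3.

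Single IDs dropped out of single libraries. No read was found for 12, 11 and 27 of the 57 IDs in IP replicates 1 to 3 and for 3, 12 and 23 in Input replicates 1 to 3. In IP replicate 3, 15 IDs without a read had reads in both other IP libraries, compared with 1 and 2 in IP replicates 1 and 2. ENSMUSG00000076925.2 is an example, with 79 and 194 reads in IP replicates 1 and 2 and 0 in IP replicate 3. At 1281 joining-segment reads per library, 43.3, 44.9 and 29.9 IDs would be expected with a read in the IP and 53.4, 44.9 and 34.0 in the Input. Replicate 3 was the lowest of each group on this measure. Without IP replicate 3 the log2 difference of the summed reads was 2.27 and that of the ratio to Trac 3.96, compared with 2.17 and 4.09 with all libraries.

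The spread of the 35 tested joining-segment IDs between replicates was wide in both groups. Taken over these IDs, the coefficient of variation had a median of 72.5% for IP libraries and 67.7% for Input libraries. The 11907 other tested IDs of the same level range had medians of 78.6% and 29.2%. The range of level was set on the mean of all 6 libraries, and the joining-segment IDs had fewer reads in the Input than in the IP, so the Input medians do not compare IDs of equal Input level. The lengths of the features behind these counts are not known for the files used here.

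**Figure D5:**
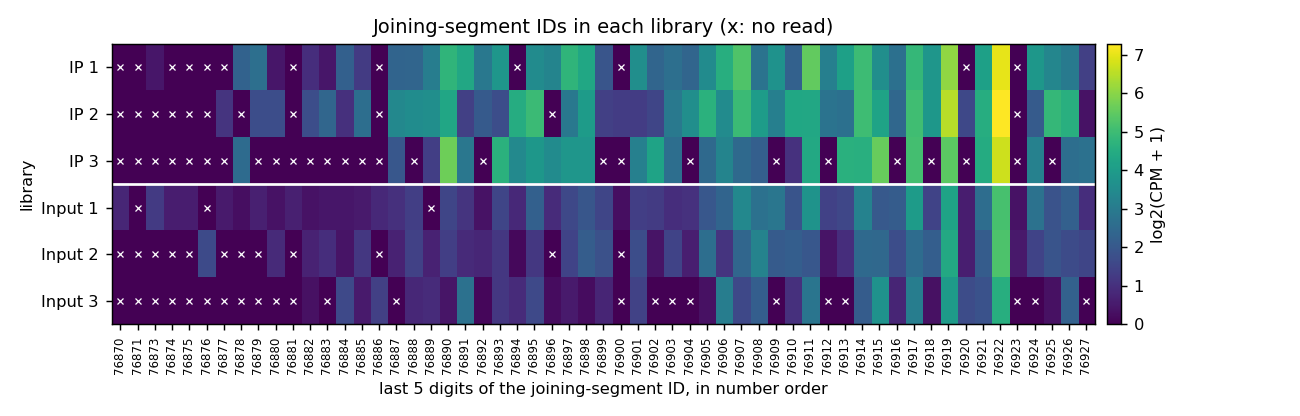
Log2(CPM + 1) of the 57 joining-segment IDs (columns, in number order) in each of the 6 libraries (rows), with a cross where an ID had no read. Crosses gather at the low numbers in both groups, and IP replicate 3 has 27 of them.

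IDs with neighbouring numbers outside the block were counted in the same way. In the 59 numbers below it, 19 IDs are listed, and their summed level was 52.2 CPM in the IP and 51.2 CPM in the Input. Of these, 9 were tested and 0 were called in edgeR's quasi-likelihood test. Their median log2 fold change was -0.56, with 3 of 9 above 0. In the 59 numbers above it, Trac aside, 22 IDs are listed, with 0 reads in the IP libraries and 79 over the Input libraries. The ratio of the IP mean to the Input mean in the lower run was thus near 1, compared with 4.46 for the joining-segment block. The upper run was lower in the IP (0 against 2.33 CPM). The block was chosen on this contrast and the neighbours were not, so nothing is read from the comparison. What these neighbouring IDs encode is not given by the files.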

How the data were processed

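RNA immunoprecipitation libraries (3 IP, 3 Input) were analysed from the deposited files, which hold raw read counts per Ensembl gene ID. Per the submitters' processing notes, Trimmomatic 0.39, HISAT2 2.1.0, HTSeq and DESeq2 were used with mm10; no source used here gives their roles, the HTSeq version, annotation, strand setting or duplicate handling. HTSeq's summary categories and 92 spike-in IDs stayed out of library sizes and tests. Gene-assigned reads numbered 6847731 to 8465453 per IP library and 10029733 to 14704617 per Input library.

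Here, CPM was computed with TMM-scaled library sizes, and all IDs were fitted with edgeR 4.0.16 in R 4.3.3 (filterByExpr, quasi-likelihood F-test, group as the only term, two-sided, Benjamini-Hochberg adjustment over 15615 IDs). SEs of single IDs come from the F statistic, and SEs of sums and ratios from library values on the log2 scale, with a prior count of 0.5 for sums. The script was tested on simulated data with less spread between libraries than the joining-segment IDs had, so that test does not bear on their calls. Named IDs were the constant genes, ENSMUSG00000076890, the 10 joining-segment IDs of highest mean CPM and any called; the others named were chosen after their values were seen. Members and lists were chosen with earlier results of these data known. Alternatives included DESeq2 1.42.0. Named marker and pathway lists were not run, since 0 of 49997 rows of the RefSeq table hold an Ensembl ID.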

Additional observations from a re-analysis of the deposited data

How the results depend on the processing

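The log2 difference of the summed joining-segment reads stayed above 0 under every alternative run. It was 1.65 with library sizes from all reads and 1.14 per read in no annotated feature (chosen after seeing the data), against 2.17, and 2.23 to 2.37 with other size factors. The log2 difference of the ratio to Trac was 3.61 with Trbc1 and Trbc2 as the reference, against 4.09. Trac and Trbc2 were called depleted under all 13 alternatives. Trbc1 was not called with upper quartile factors (-0.79), and its log2 fold change was -1.18 to -0.95 with 1 library left out. The joining-segment IDs called enriched numbered 14 with DESeq2's Wald test and 2 to 8 with 1 library left out, against 4, and 56 IDs were tested without the filter, 46 of them above 0. A replicate block gave 3 enriched joining-segment IDs, a log2 fold change of -1.92 for Trac and a mean difference in the ratio to Trac of 4.09 ± 0.44 (SE). Deviations of same-numbered libraries from their group means correlated at 0.13, 0.04 and 0.025 over all tested IDs. Such values do not exclude pairing, which the labels do not state. The main fit treated libraries of equal number as unpaired. Over all tested IDs the median log2 fold change moved by 0.20 with upper quartile factors, 0.12 with total counts, -0.53 with all reads, -0.38 with the block, and -0.15 and -0.11 without IP replicate 1 and 2. For these changes the cause was not tested. Counts without molecular identifiers limit single joining-segment IDs, of which 37 have no read in at least 1 library.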
